A study of Homo sapiens with 4 samples.

Results

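The genes described here are 39 genes of DNA replication and S phase, out of 30982 gene names on the array. They were taken as a list by their known function, with earlier results of these data known. They cover origin licensing (5 genes), the replicative helicase and its activation (9), the sliding clamp and its loader (5), polymerases and primase (5), Okazaki fragment maturation (2), single-strand DNA binding (3), nucleotide supply (4), chromatin assembly and DNA methylation (4) and the E2F factors E2F1 and E2F2. For all 39, both channels read well above background on each of the 4 arrays.

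RNA was taken from 2 established human cell lines, FaDu (hypopharyngeal squamous cell carcinoma) and HSC3 (tongue squamous cell carcinoma). Each line was transfected with mature miR-489 or miR-504, and RNA was collected after 72 h. The RNA of each transfectant carried Cy5 and was hybridised with Cy3-labelled RNA of control-miRNA transfectants of the same line. There was 1 array for each line and miRNA, 4 in all, on 1 slide read in 1 scan, and the dyes were not swapped. The lines therefore stood as the 2 replicates of a miRNA, whereas a difference within a line has no replicate, and p-values measure the spread between these arrays only. On each array 43376 spots were read, and 15725 genes whose Cy3 signal exceeded background on every array were tested. Of the squamous epithelial markers on the array, 9 of 9 were above background in control RNA on all arrays, whereas 8 of 10 markers of other cells were above it on none. The exceptions were GFAP, which was dimly detected on all 4 arrays, and COL1A1.

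DNA replication begins when the origin recognition complex, CDC6 and CDT1 load the MCM2 to MCM7 helicase onto DNA, a step that geminin (GMNN) blocks by binding CDT1. The kinase CDC7, with CDC45 and the GINS complex, then turns the loaded ring into an active helicase, primase and polymerases copy both strands, and PCNA holds the polymerases on the template. Many of these genes are transcribed together at the G1/S boundary under E2F factors, so their mRNA levels are commonly read as a sign of how many cells are cycling. In RNA from whole cultures, fewer cells in S phase and less of an mRNA per cell cannot be told apart.

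The sequences of the introduced miRNAs are shown because the comparison between them is the main contrast of the arrays. They are the RefSeq mature sequences on GRCh38.p14, with the seed (bases 2 to 8) in capitals. The sample labels do not state an arm, so each mature product of these miRNA genes in the table is printed.
hsa-miR-489-3p (chr7:93483947-93483968, minus strand): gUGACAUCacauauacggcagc
hsa-miR-504-5p (chrX:138667760-138667781, minus strand): aGACCCUGgucugcacucuauc
hsa-miR-504-3p (chrX:138667724-138667744, minus strand): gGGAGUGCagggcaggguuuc
The seeds are 3 different heptamers. No transcript sequence was searched for them, so nothing here bears on which members might be direct targets.

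Promoter sequence was examined because the members are usually regarded as one E2F-controlled programme. RefSeq promoters of 300 bases (250 before the start site and 50 after it, GRCh38.p14) were found for 35 of the 39 members. The letters TTTCCCGC, TTTCGCGC, TTTGCCGC or TTTGGCGC on either strand, taken as E2F-type motifs, occurred for 19 of these 35 genes (54.3%), against 3.99% of the 27305 genes in the table and 5.40% of its 15843 protein-coding genes. The CCAAT pentamer occurred for 20 members (57.1%), against 39.7% of all genes and 42.1% of protein-coding genes. The cell cycle homology region of mitotic genes (TTTGAA or TTCGAA on either strand) occurred for 2 members (5.71%) against 19.5% of all genes and 17.5% of protein-coding genes. In a list of 30 mitosis genes, of which 23 had a promoter in the table, it occurred for 16 (69.6%). There the E2F-type motif occurred for 2 (8.70%) and CCAAT for 20 (87.0%). In a list of other replication genes, 36 had a promoter in the table. Among these the E2F-type motif occurred for 16 (44.4%), CCAAT for 24 (66.7%) and the cell cycle homology region for 6 (16.7%). These are matches of letters in a short window and not mapped binding sites.

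The stretches below are promoter sequences around the E2F-type match nearest to the start site, for members whose values are described further on. Capitals mark the matches, and each is written 5′ to 3′ on the strand of the gene.
PCNA (chr20:5126648-5126707, minus strand): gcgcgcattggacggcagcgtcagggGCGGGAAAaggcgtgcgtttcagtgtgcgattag
CDC6 (chr17:40287860-40287904, plus strand): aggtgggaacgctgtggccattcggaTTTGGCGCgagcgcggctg
POLE (chr12:132687327-132687386, minus strand): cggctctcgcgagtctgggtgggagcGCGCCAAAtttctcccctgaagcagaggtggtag
CDT1 (chr16:88803728-88803787, plus strand): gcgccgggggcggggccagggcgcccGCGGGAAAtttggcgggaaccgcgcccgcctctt
MCM2 (chr3:127598387-127598436, plus strand): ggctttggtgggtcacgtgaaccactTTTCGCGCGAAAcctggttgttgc
MCM6 (chr2:135876496-135876555, minus strand): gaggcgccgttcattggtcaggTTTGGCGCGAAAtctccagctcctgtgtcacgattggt
MCM7 (chr7:100101373-100101432, minus strand): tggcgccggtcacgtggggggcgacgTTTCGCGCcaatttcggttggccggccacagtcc
POLA2 (chr11:65261883-65261942, plus strand): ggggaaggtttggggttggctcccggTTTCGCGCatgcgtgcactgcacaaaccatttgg
E2F1 (chr20:33686372-33686431, minus strand): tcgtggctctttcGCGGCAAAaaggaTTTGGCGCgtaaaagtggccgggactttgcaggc
E2F2 (chr1:23531242-23531301, minus strand): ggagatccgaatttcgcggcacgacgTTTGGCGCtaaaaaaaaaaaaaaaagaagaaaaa
MCM6 had 4 matches in its window of 300 bases, and in the stretches shown for MCM2 and MCM6 a pair of matches overlaps. The promoters of ORC1, CDC45, MCM10, PRIM1 and FEN1 had none of these letters in the windows searched, and those of MCM4, MCM5, RPA2 and RPA3 were not analysed here.

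The contrast that cancels effects common to all arrays is miR-489 minus miR-504, both measured against control RNA of the same line. All members' differences were under 2-fold in both lines. PRIM1, CDC6 and CDC45L (the array's name for CDC45) had lower values with miR-489 in both lines, and PCNA, MCM10, FEN1, ORC1L (ORC1) and POLE had higher values in both lines. In limma's moderated test, with Benjamini-Hochberg adjustment over the 20914 probes tested, 0 of the 39 members passed at 0.05 in either direction. Of all genes, 0.782% passed as lower and 0.305% as higher. At an unadjusted p under 0.05, 3 members were lower (7.69%, against 9.54% of all genes) and 8 were higher (20.5%, against 8.43%). The 8 were FEN1, MCM10, MCM3, ORC1L, PCNA, POLE, RFC3 and RPA1. With the normexp background correction, PRIM1 and PCNA passed at adjusted p-values of 0.0428 and 0.0445 by limma, 2 members in all. The share of all genes passing with that correction was not counted, so this count cannot be set against the whole array.

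Over the 39 members the median log2 difference was 0.13 in FaDu and 0.10 in HSC3, beside 0.02 in both lines over all genes. The difference was above 0 in both lines for 21 members, below 0 in both for 6 and of opposite sign for 12. This split was not counted over all genes. Line by line, 30 members were above 0 in FaDu and 24 in HSC3, beside 8248 and 8322 of 15725 genes. Among the brightest 25% of all genes, where 25 of the members lay, the median difference was 0.06 in FaDu and 0.01 in HSC3. Past 1.5-fold within FaDu there was 1 lower member, PRIM1, among 39 (2.56%, against 7.25% of all genes) and 0 higher ones (against 4.43%). In HSC3 there were 0 lower and 0 higher members past 1.5-fold, against 5.6% and 3.22% of all genes.

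**Figure D1:**
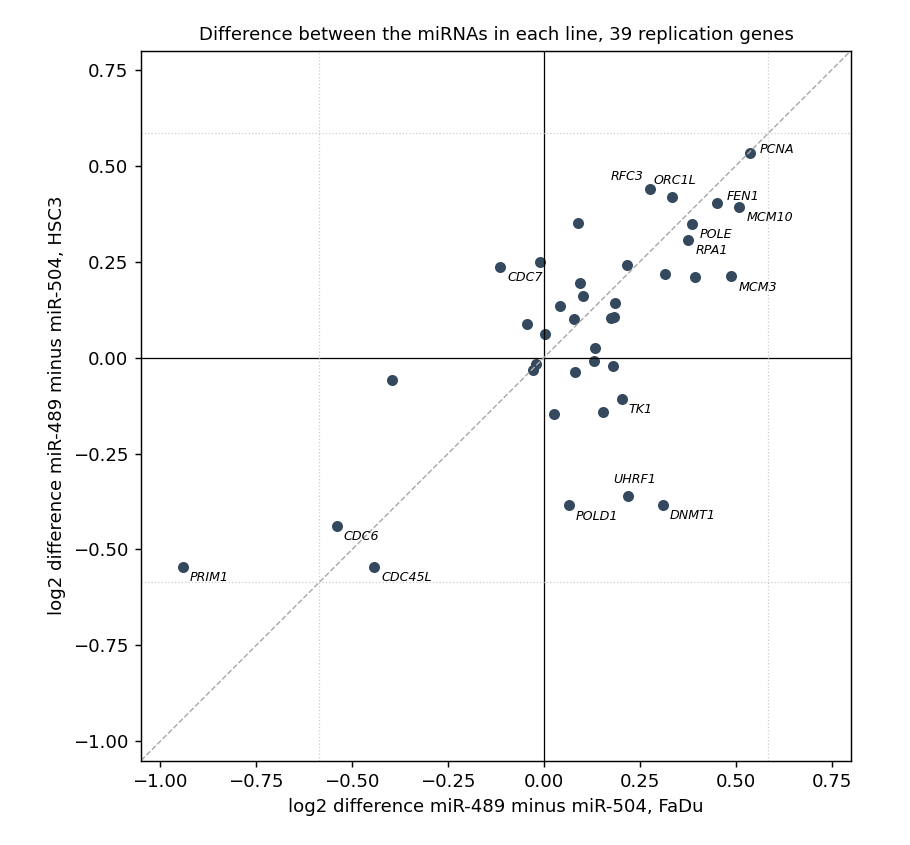
Log2 difference miR-489 minus miR-504 of each of the 39 members in FaDu (x axis) and HSC3 (y axis), 1 point per gene. Dotted lines mark 1.5-fold, and the dashed line marks equal values. PRIM1 lies farthest down (−0.94 and −0.55) and PCNA farthest up (0.54 and 0.53), while DNMT1, UHRF1 and POLD1 lie right of 0 and below it.

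Among the licensing genes, CDC6, the ATPase that brings the helicase to origins, had lower values with miR-489 than with miR-504. Its log2 ratio to control was −0.75 in FaDu and −0.71 in HSC3 with miR-489, and −0.21 and −0.27 with miR-504. The values of both miR-489 arrays were below those of both miR-504 arrays. The mean difference was −0.49 ± 0.11 (SE, n = 2 arrays per miRNA, limma adjusted p = 0.117). All SEs given are those of limma, from the spread between arrays of the same miRNA. ORC1L, the largest subunit of the origin recognition complex, showed the reverse order within uniformly positive ratios. It was 0.81 and 0.92 with miR-489 in FaDu and HSC3 and 0.48 and 0.51 with miR-504, a mean difference of 0.38 ± 0.11 (SE, n = 2; limma adjusted p = 0.183). For CDT1, which loads the helicase together with CDC6, the ratios were 0.20 and 0.18 with miR-489 and 0.07 and 0.16 with miR-504. The 95% interval of its difference between the miRNAs ran from −0.20 to 0.36. GMNN, the inhibitor of CDT1, had ratios of −0.51 and −0.39 with miR-489 and −0.47 and −0.47 with miR-504, so the groups overlapped, and the 95% interval of its difference was −0.27 to 0.31. ORC6L, another subunit of the origin recognition complex, had 4 ratios between −0.04 and 0.25.

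The 6 subunits of the MCM helicase ring had unlike values. MCM5 had ratios of 0.76 and 0.70 with miR-489 and 0.74 and 0.84 with miR-504 in FaDu and HSC3. MCM6 had ratios of 0.45 and 0.47 with miR-489 and 0.48 and 0.50 with miR-504, with a difference of −0.03 (95% interval −0.30 to 0.24). MCM4 had 0.47 and 0.28 with miR-489 and 0.38 and 0.32 with miR-504. The mean difference between the miRNAs was −0.06 for MCM5 and 0.02 for MCM4, and the values of the miRNAs overlapped for MCM4 and MCM5. MCM2 had 0.55 and 0.46 with miR-489 and 0.36 and 0.35 with miR-504. MCM7 had 0.84 and 0.74 with miR-489 and 0.62 and 0.50 with miR-504, so that both miR-489 values exceeded both miR-504 values for MCM2 and MCM7. MCM3 stood apart with ratios near 0 with miR-489 (0.10 and −0.03) and negative ratios with miR-504 (−0.39 and −0.24). Its difference was 0.35 ± 0.12 (SE, n = 2; limma adjusted p = 0.231).

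Of the genes that activate the ring, CDC45L, whose product travels with the MCM ring and GINS at the fork, had ratios of −0.70 and −0.84 with miR-489 and −0.25 and −0.29 with miR-504 in FaDu and HSC3. The 2 groups did not overlap, and the mean difference was −0.49 ± 0.11 (SE, n = 2; limma adjusted p = 0.127). Its background-subtracted signals before centring were 6487 in Cy3 and 5988 in Cy5 on the FaDu miR-489 array, and 6089 and 8020 on the FaDu miR-504 array. MCM10, which joins the helicase before unwinding, had ratios of 0.50 and 0.17 with miR-489 and −0.01 and −0.22 with miR-504. Its second probe gave differences of 0.68 in FaDu and 0.49 in HSC3, beside 0.51 and 0.39 with the brighter one. CDC7, the kinase that phosphorylates the MCM ring, had 0.38 and 0.52 with miR-489 and 0.50 and 0.29 with miR-504, and its differences of −0.11 in FaDu and 0.24 in HSC3 were of opposite sign.

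PCNA encodes the sliding clamp and was printed in 10 spots per array. Its ratios were 0.15 in FaDu and 0.26 in HSC3 with miR-489, and −0.39 and −0.28 with miR-504. Both miR-489 values lay above 0 and both miR-504 values below it. The difference between the miRNAs was nearly the same in the lines, 0.54 in FaDu and 0.53 in HSC3, with a mean of 0.53 ± 0.12 (SE, n = 2; limma adjusted p = 0.115) or 1.45-fold. Of the clamp loader subunits, RFC2 and RFC5 had ratios between 0.29 and 0.63 on the 4 arrays, and RFC4 between −0.51 and −0.31. RFC3 had ratios of 0.72 and 0.78 with miR-489 and 0.45 and 0.34 with miR-504, a mean difference of 0.36 ± 0.11 (SE, n = 2; limma adjusted p = 0.197). A second RFC3 probe, listed under another transcript, had Cy3 signals of 45.5 to 63.5 against 323 to 368.5 for the brighter one. Its difference between the miRNAs was −0.81 in FaDu and −0.15 in HSC3, opposite in sign to the 0.28 and 0.44 of the brighter probe.

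PRIM1, the catalytic subunit of primase, had the widest difference between the miRNAs of the 39 members, and was also printed in 10 spots per array. Its ratios were −0.81 in FaDu and −0.46 in HSC3 with miR-489, and 0.13 and 0.09 with miR-504. The Cy5 signal, background-subtracted and not yet centred, was 1077 with miR-489 and 2093 with miR-504 in FaDu, where the Cy3 signals were 1264 and 1219. In HSC3 the Cy5 signals were 1518 and 1976 and the Cy3 signals 1391 and 1366, so in each line the control signals were close and the miRNA channels were not. The difference was −0.94 in FaDu and −0.55 in HSC3, with a mean of −0.74 ± 0.15 (SE, n = 2; limma adjusted p = 0.106) or 1.67-fold. POLE, the catalytic subunit of the leading-strand polymerase, had ratios of 0.76 and 0.86 with miR-489 and 0.37 and 0.51 with miR-504. Its mean difference was 0.37 ± 0.12 (SE, n = 2; limma adjusted p = 0.204), while its other probes were not above background. The POLE probe used was the dimmest of the 39, with Cy3 signals of 57 to 96, and its mean ratio with miR-489 ran from 0.44 to 1.09 over the 6 other background corrections and scalings. POLE2, its accessory subunit, differed by 0.39 in FaDu and 0.21 in HSC3. POLA2, a subunit of the polymerase that extends primers, had ratios between −0.38 and −0.20 on the 4 arrays.

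FEN1, the nuclease that trims Okazaki fragment flaps, was below control throughout. Its ratios were −0.16 and −0.20 with miR-489 in FaDu and HSC3 and −0.61 and −0.60 with miR-504. The mean difference was 0.43 ± 0.11 (SE, n = 2, limma adjusted p = 0.142). A second probe gave differences of 0.40 in FaDu and 0.49 in HSC3. LIG1, which seals the fragments, had ratios between −0.09 and 0.27. Of the RPA heterotrimer that coats single-stranded DNA, RPA1 had ratios of 0.34 and 0.31 with miR-489 and −0.04 and 0.00 with miR-504. RPA2 stayed between 0.13 and 0.16 on all arrays and RPA3 between −0.75 and −0.50.

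Several genes had differences of opposite sign in the lines. DNMT1, the maintenance DNA methyltransferase, had ratios of 0.87 with miR-489 and 0.56 with miR-504 in FaDu, but 0.28 and 0.66 in HSC3. The difference was 0.31 in FaDu and −0.38 in HSC3. UHRF1, which recruits DNMT1 to newly copied DNA, had ratios of 0.33 and 0.12 in FaDu and −0.06 and 0.30 in HSC3, differences of 0.22 and −0.36. Its second probe gave 0.39 and −0.28. POLD1, the catalytic subunit of the lagging-strand polymerase, had ratios of 0.49 with miR-489 and 0.42 with miR-504 in FaDu, and −0.08 and 0.31 in HSC3. It differed by 0.06 in FaDu and −0.38 in HSC3, with 0.09 and −0.38 from its second probe. TK1, the thymidine kinase of the salvage pathway, had ratios of −0.18 and −0.38 in FaDu and −0.42 and −0.32 in HSC3, differences of 0.20 and −0.11. With 1 array per line and miRNA, the difference between the lines was not tested.

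Of the remaining nucleotide and chromatin genes, RRM2, the regulated subunit of ribonucleotide reductase, differed by −0.40 in FaDu and −0.06 in HSC3, and its second probe by −0.03 and 0.04. RRM1, the large subunit, had ratios between −0.28 and 0.07. TYMS, which makes thymidylate, had ratios between 0.55 and 0.77. Of the histone chaperone CAF-1, CHAF1A had ratios between 0.38 and 0.48 and CHAF1B between −0.21 and −0.14. E2F1, the G1/S transcription factor, had ratios of 0.17 and 0.02 with miR-489 and −0.14 and −0.19 with miR-504, and the 95% interval of its difference was −0.03 to 0.56. E2F2 had −0.38 and −0.03 with miR-489 and −0.47 and −0.38 with miR-504. Its second, dimmer probe read −0.79 and −0.99 with miR-489 and −0.90 and −1.15 with miR-504.

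**Figure D2:**
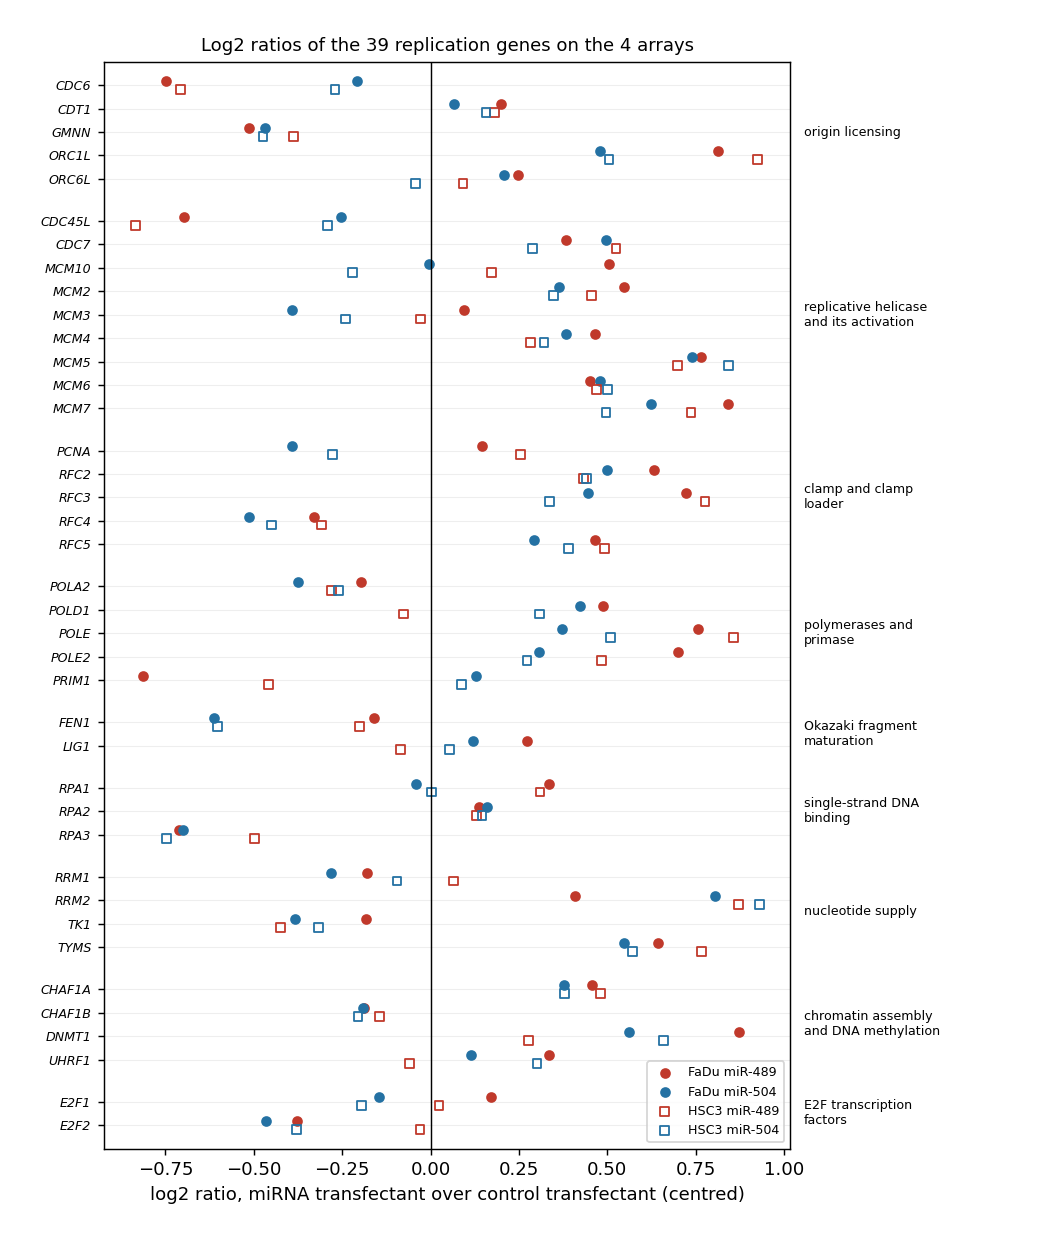
Log2 ratio of the miRNA transfectant over the control transfectant for each of the 39 members, grouped by role, 1 point per array. Filled circles are FaDu and open squares HSC3, miR-489 in red and miR-504 in blue. CDC6, CDC45L and PRIM1 have both red points to the left of both blue points, and PCNA, FEN1, ORC1L and POLE the reverse. These genes were picked for the size of their difference, so this order largely follows from the choice. Other members, such as MCM2, MCM7, RFC3 and RPA1, and MCM6 in the lower direction, are separated too. The share of all genes separated in this way was not counted.

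Other genes of the pathway were taken from function lists for comparison. Of 40 further replication genes tested, 0 passed the adjusted limma test between the miRNAs. At an unadjusted limma p under 0.05, 2 were lower (5%, against 9.54% of all genes) and 4 were higher (10%, against 8.43%). The lower pair was GINS4, a subunit of the GINS complex, and PRIM2A, the large subunit of primase, named after its values were seen. The 4 higher genes were DCC1, DCK, DNA2L and POLD3, of which DCC1 and DCK were also named after their values were seen. GINS4 differed by −0.51 in FaDu and −0.55 in HSC3 (limma adjusted p = 0.102), and PRIM2A by −0.54 and −0.38 (limma adjusted p = 0.177). DNA2L, the DNA2 helicase-nuclease of Okazaki fragment processing, differed by 0.58 and 0.63 (limma adjusted p = 0.0935). POLD3, an accessory subunit of the lagging-strand polymerase, differed by 0.40 and 0.53, and CHTF18, of an alternative clamp loader, by −0.05 and −0.62. The median difference over these 40 genes was −0.01 in FaDu and 0.07 in HSC3.

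Of 30 G1/S control genes, 0 passed the adjusted test. At an unadjusted limma p under 0.05, 2 were lower (6.67%, against 9.54% of all genes) and 5 were higher (16.7%, against 8.43%). The cyclin-dependent kinase inhibitor CDKN1B differed by −1.19 in FaDu and −0.38 in HSC3, and SKP2, the ubiquitin ligase subunit that marks its protein for degradation, by 0.54 and 0.66. CDKN2B, another kinase inhibitor, differed by −0.84 and −0.10, and CCND2, a D-type cyclin, by 1.36 and 0.24. Of 30 mitosis genes 0 passed, with 1 lower (3.33%) and 3 higher (10%) at an unadjusted limma p under 0.05. MKI67, the proliferation marker, differed by 0.43 and 0.53, TPX2, a spindle assembly factor, by 0.36 and 0.38, CDC2 (CDK1) by −0.58 and −0.31, and CDC25C, its activating phosphatase, by −0.60 and 0.26. The median difference of the mitosis genes was 0.02 in FaDu and 0.19 in HSC3.

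Against control RNA, the members split into genes above and below control. The values of miR-489 and miR-504 are given side by side only, because the arrays of a line were both read against its control transfectant. In FaDu the median log2 ratio of the members was 0.33 with miR-489 and 0.13 with miR-504, and in HSC3 it was 0.17 and 0.15, beside 0.02 over all genes on each. With miR-489, 17 of the 39 members rose (43.6%, against 30.1% of all genes) and 7 fell (17.9%, against 27.8%) in limma's test at an adjusted p under 0.05. With miR-504, 16 rose (41.0%, against 26.7%) and 10 fell (25.6%, against 24.3%). This split moved with the scaling. With loess it was 15 higher and 10 lower for miR-489 and 13 and 14 for miR-504, and with the deposited ratios 15 and 13 for miR-489 and 11 and 14 for miR-504. With total-signal scaling it was 13 and 11 for miR-489 and 7 and 14 for miR-504, so under these 3 settings lower calls outnumbered higher ones for miR-504. Without background subtraction it was 23 and 5 for miR-489 and 20 and 5 for miR-504. The shares of all genes called under these settings were not counted, so these counts cannot be set against the whole array. With total-signal scaling the median log2 ratio of all genes also lay below 0, between −0.19 and −0.15.

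The rise with miR-489 took in MCM2, MCM4, MCM5, MCM6, MCM7 and CDC7 of the helicase group, ORC1L, the clamp loaders RFC2, RFC3 and RFC5, POLE, POLE2, RPA1, RRM2, TYMS, CHAF1A and DNMT1. All 17 stayed above 0 under the 6 other background corrections and scalings, and 12 of them passed under each, MCM4, MCM6, CDC7, RPA1 and DNMT1 being the exceptions. The largest of these means was ORC1L at 0.87 ± 0.08 (SE, n = 2; limma adjusted p = 0.00133). The 7 that fell were CDC6, CDC45L, PRIM1, GMNN, RPA3, RFC4 and TK1, led by CDC45L at −0.77 ± 0.08 (SE, n = 2; limma adjusted p = 0.0018). All 7 stayed below 0 under the 6 settings, and RFC4 and TK1 did not pass under each. The matching shares over all called genes were not counted, and the settings reuse the arrays that gave the calls.

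With miR-504 the 16 that rose were MCM2, MCM4, MCM5, MCM6, MCM7, CDC7, ORC1L, RFC2, RFC3, RFC5, POLE, POLE2, RRM2, TYMS, CHAF1A and DNMT1. RRM2 had the largest mean at 0.87 ± 0.13 (SE, n = 2; limma adjusted p = 0.00531). The 10 that fell were RPA3, FEN1, RFC4, GMNN, E2F2, TK1, PCNA, POLA2, MCM3 and CDC45L, with RPA3 at −0.72 ± 0.09 (SE, n = 2; limma adjusted p = 0.00331) and FEN1 at −0.61 ± 0.08 (SE, n = 2; limma adjusted p = 0.00339). Of these calls, 6 of the higher and 5 of the lower passed under each of the 6 other settings, and none of the 26 changed sign. The matching shares over all called genes were not counted, here or with arrays left out. Without either miR-504 array, only 4 members passed for miR-504.

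Some of these values depended on the probe. With the second probe, RFC3 was at −0.17 with miR-489 (limma adjusted p = 0.291) and 0.31 with miR-504 (limma adjusted p = 0.0942). RRM2 was at 0.18 (limma adjusted p = 0.136) and 0.17 (limma adjusted p = 0.162), so neither gene passed with either miRNA. E2F2 was at −0.89 with miR-489 (limma adjusted p = 0.00222) and −1.02 with miR-504, and so passed with both. UHRF1 was at −0.40 with miR-489 (limma adjusted p = 0.0444) and −0.45 with miR-504 (limma adjusted p = 0.0352), beside 0.14 and 0.21 with the brighter probe. MCM10 was at −0.61 with miR-504 (limma adjusted p = 0.00406), beside −0.11 with the brighter one. CDT1, ORC6L and POLD1 passed as higher with miR-489, and POLD1 also with miR-504, which they did not with the brighter probe.

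These values hold any dye effect of a probe, which cannot be told apart from an effect shared by the transfectants because no array had swapped dyes. They also moved with spot brightness. The members were bright, with a median control signal at the 81.5th percentile of all genes, and 25 of the 39 lay among the brightest 25%. Over all genes of the brightest 25% the median log2 ratio was 0.12 and 0.06 in FaDu (miR-489, then miR-504) and 0.11 and 0.09 in HSC3, and over the dimmest 25% it was −0.20 and −0.14 in FaDu and −0.24 and −0.19 in HSC3. The part of brightness in the members' medians was not tested beyond the loess fit, with which they were 0.14, 0.03, 0.03 and 0.02 in the same order.

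**Figure D3:**
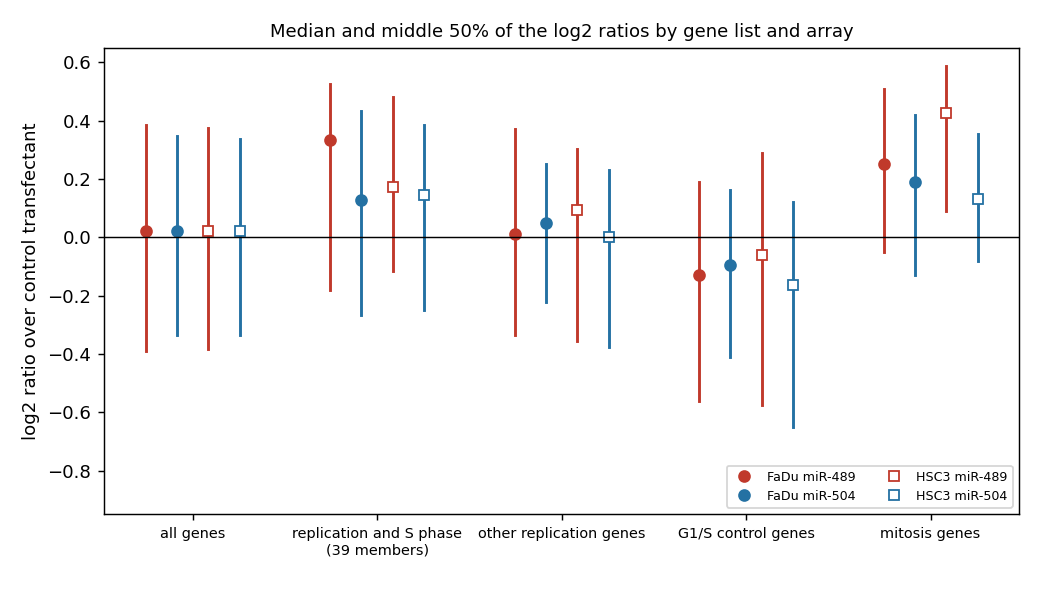
Median (points) and middle 50% (bars) of the log2 ratio over the control transfectant for all 15725 genes, the 39 members, 40 other replication genes, 30 G1/S control genes and 30 mitosis genes on each array. Medians of the members lie between 0.13 and 0.33 and those of the mitosis genes between 0.13 and 0.43. The G1/S control genes lie between −0.16 and −0.06. Medians of the other replication genes are 0.01 and 0.05 in FaDu (miR-489, then miR-504) and 0.09 and −4.0e-05 in HSC3, beside 0.02 over all genes.

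The other lists are given beside the shares over all genes, which were 30.1% higher and 27.8% lower with miR-489 and 26.7% higher and 24.3% lower with miR-504; no difference between lists was tested. Of 40 other replication genes, 11 rose (27.5%) and 10 fell (25%) with miR-489, and 8 rose (20%) and 9 fell (22.5%) with miR-504. Of 30 mitosis genes, 17 rose (56.7%) and 4 fell (13.3%) with miR-489, and 11 rose (36.7%) and 4 fell (13.3%) with miR-504. Of 30 G1/S control genes, 8 rose (26.7%) and 11 fell (36.7%) with miR-489, and 4 rose (13.3%) and 10 fell (33.3%) with miR-504.

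The control channels allow the members to be compared between the lines, with each channel centred on its own median. HSC3 minus FaDu is given as a description, without a test, because the labels do not say whether the control RNA of a line on its 2 arrays was 1 extract. Members had mostly lower values in HSC3. The median log2 difference was −0.34 over the 39 members beside −0.08 over all genes. Below 0 were 28 of the 39 members, beside 8621 of 15725 genes. Past 2-fold, 7 members were lower in HSC3 (17.9%, against 11.6% of all genes) and 1 was higher (2.56%, against 10.2%). In the RNA of the transfectants the median difference was −0.44 with miR-489 and −0.40 with miR-504. The sign was negative in both control pairs and both transfectants for 26 members and positive in all of them for 7, a count not taken over all genes. The control signals of the 2 arrays of a line differed among members by a median of 0.09 in FaDu and 0.18 in HSC3, and at most by 0.43 and 0.66.

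**Figure D4:**
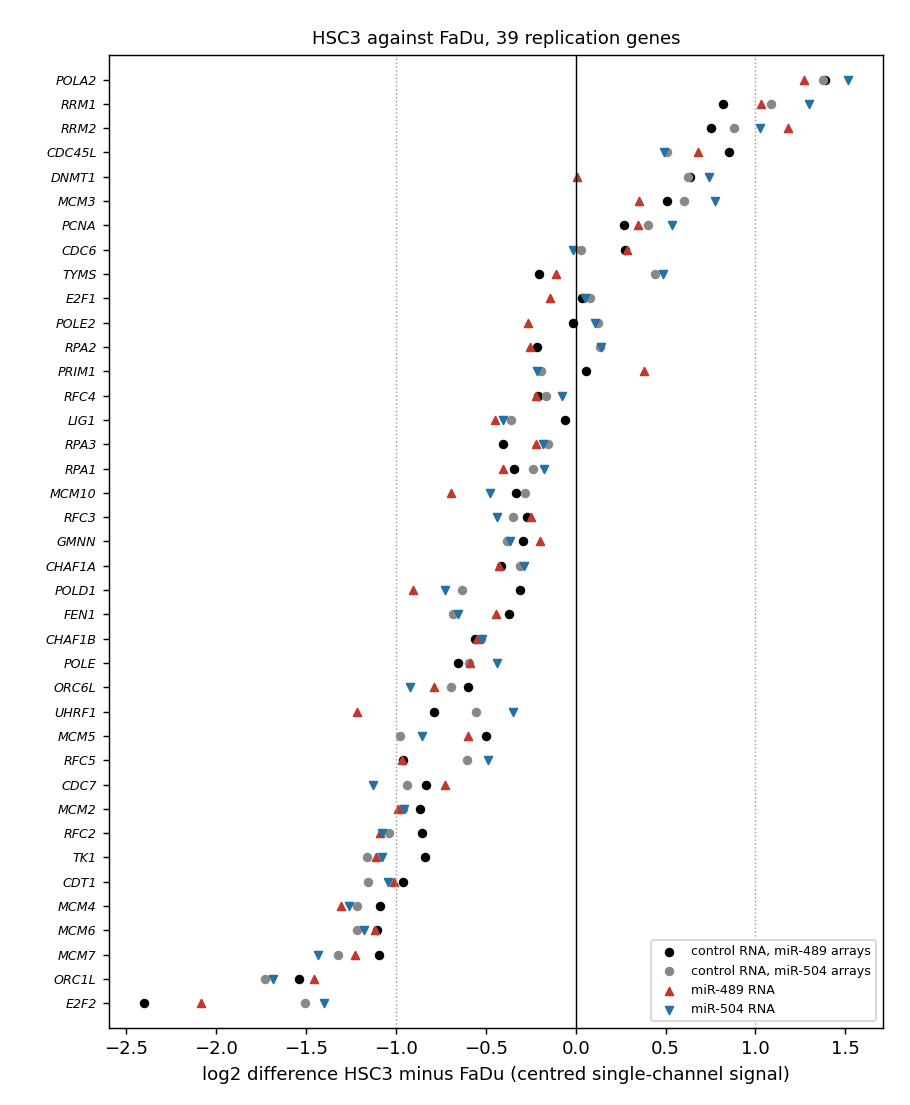
Log2 difference HSC3 minus FaDu of the centred signal for the 39 members, ordered by the mean of the control pairs. Black and grey points are control RNA from the miR-489 and the miR-504 arrays, and triangles are the miRNA transfectants. Dotted lines mark 2-fold. The helicase genes MCM4, MCM6 and MCM7 lie near the low end and POLA2, RRM1 and RRM2 at the high end.

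E2F2 had the lowest value, with log2 differences of −2.40 and −1.51 in the 2 control pairs, −2.08 with miR-489 and −1.40 with miR-504. Its background-subtracted Cy3 signals were 1505 and 1267 in FaDu and 302 and 572 in HSC3, so all HSC3 values were below all FaDu values although the pair in HSC3 differed widely. The second, dimmer probe of E2F2 gave −0.99. E2F1 was at 0.04 and 0.08 in the control pairs, so the E2F factors listed here were not alike in this respect.

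ORC1L followed with −1.54 and −1.73 in the control pairs. Its Cy3 signals were 575 and 586 in FaDu and 210 and 227 in HSC3. The helicase genes MCM7 (−1.09 and −1.32), MCM6 (−1.10 and −1.22) and MCM4 (−1.09 and −1.22) were lower by 2.22-fold to 2.31-fold. MCM2 was at −0.87 and −0.96 and MCM5 at −0.50 and −0.98, while MCM3 was higher in HSC3 at 0.51 and 0.60. Of the 6 subunits, 5 were thus below 0 in both control pairs and both transfectants and 1 above it. CDT1 was at −0.96 and −1.15, with a mean of −1.14 from its second probe, and TK1 at −0.84 and −1.16. CDC7 had a mean of −0.89, RFC2 of −0.95 and RFC5 of −0.78. ORC6L had a mean of −0.65 with the brightest probe and −1.49 and −1.24 with the others.

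Higher values in HSC3 belonged to few members. POLA2 was at 1.39 and 1.38 in the control pairs, 1.27 with miR-489 and 1.51 with miR-504, a 2.60-fold higher mean. Its Cy3 signals were 678 and 711 in FaDu and 1871 and 2363 in HSC3. The subunits of ribonucleotide reductase were both higher, RRM1 by 0.95 and RRM2 by 0.82 on average. CDC45L was at 0.85 and 0.51 and PCNA at 0.27 and 0.40. DNMT1 was at 0.64 and 0.62 in control RNA and at 0.74 with miR-504 but at 0.01 with miR-489.

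For comparison, the median difference HSC3 minus FaDu in control RNA was −0.41 over 40 other replication genes, −0.18 over 30 G1/S control genes and −0.27 over 30 mitosis genes. Past 2-fold, 8 other replication genes were lower (20%, against 11.6% of all genes) and 1 was higher (2.5%, against 10.2%). Of the mitosis genes, 2 were lower (6.67%) and 1 was higher (3.33%). The 8 lower replication genes, named after their values were seen, were ASF1A, ATAD2, CDCA7, DCC1, DUT, GINS2, KIAA0101 and POLA. CDCA7 was the lowest at −1.91, the GINS subunit GINS2 was at −1.68, and the higher gene was DCK at 1.24. The 5 G1/S control genes lower past 2-fold, also named after their values were seen, were CCND3, CCNE1, E2F4, E2F5 and TFDP1. As many were higher past 2-fold, namely CCND2, CDKN1A, CDKN2B, E2F7 and SKP2. In each direction these were 16.7% of the G1/S control genes, against 11.6% of all genes lower and 10.2% higher.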

How the data were processed

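Total RNA of FaDu or HSC3 transfectants (Cy5) and of control transfectants (Cy3) was compared on 4 two-colour Agilent oligo-microarrays. The authors deposited scanner files that give, without normalisation, spot and background intensity (median and mean) in each channel, and a log10 ratio calculated by the scanner software after dye normalisation; the deposited value table was identical to those log10 ratios. The deposited 0 or 1 marks (other values) for outliers and signal above background were used as filters. Control and outlier spots were left out. After background subtraction, median intensities were turned into log2 ratios, and each array's median over probes above background in both channels was set to 0 (removing 0.58 with miR-489 and 0.65 with miR-504 in FaDu, and 0.58 and 0.45 in HSC3). Replicate spots of a probe were averaged, with a standard deviation of 0.0874 to 0.0996 within an array. A gene took its brightest probe in Cy3, provided that Cy3 was above background on all arrays. For HSC3 minus FaDu, each channel was centred in the same way on the log2 scale.

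limma (lmFit and eBayes) was fitted to 20914 probes on 4 arrays, with 2 residual degrees of freedom and a prior of 3.20, and p-values were adjusted by Benjamini-Hochberg. The number of arrays limits the precision. The cell line as a block and other corrections, scalings, filters, probe choices and thresholds were tried, and each array was left out in turn. Cell lines do pair the arrays: the correlation of deviations from the miRNA means within a line was 0.136. The p-values and SEs given come from the fit without the block. Those SEs rest on the spread between arrays of the same miRNA, moderated by limma, and not on the spread of the line differences. With the block, 558 probes passed between the miRNAs by limma, against 223 without it, and 0 members passed. The limma adjusted p of PRIM1 was then 0.0752, beside 0.106. The scripts were tested on simulated data. Members and gene lists were chosen with earlier results of these data known. Values on each array are given for the 8 members with the largest mean difference between the miRNAs of the same sign in both lines. They are also given for the 5 with the largest gap of opposite sign and the 6 with the largest difference between the lines. E2F1, PCNA, CDT1, GMNN, CDC6 and MCM2 to MCM7 were included whatever their values. Outside the members, the rule named 2 high and 2 low genes each of the other replication, G1/S control and mitosis lists. The selection as run left out PRIM2A, although its mean difference was lower than that of CHTF18 and the rule calls for it. PRIM2A, DCC1, DCK and the genes named for a difference between the lines were added after their values were seen. Gene names are those of the array. Fits were made with limma 3.58.1 in R 4.3.3, and figures and motif counts with matplotlib 3.10.9 and pandas 2.3.3 in Python 3.11.15.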

Additional observations from a re-analysis of the deposited data

Results flagged for a closer look

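The difference miR-489 minus miR-504 of DNMT1 was 0.31 (log2) in FaDu and −0.38 in HSC3. The signs were opposite, and both values exceeded 0.26 in size, a limit taken from the noise between replicate spots within an array, which leaves out the spread between transfections. For DNMT1 the limma standard error of the mean difference was 0.21. It rests on the moderated spread between arrays of the same miRNA and does not measure the spread of the line differences. The difference between the lines was not tested, since each value rests on 1 array per miRNA. In HSC3 the ratio with miR-489 was 0.28, the lowest of the 4 DNMT1 ratios.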

How the results depend on the processing

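Between the miRNAs, the count of 0 members was unchanged with the cell line as a replicate block (0), when each array was left out (0 to 0) and under all other settings except the normexp background correction, with which 2 passed, and the unadjusted p, with which 11 did. The block changed no call among the members. Against control with miR-504, 10 members passed without the filter on dim probes and 4 to 27 when each array was left out (4 without either miR-504 array). The median log2 ratio of the members (miR-489 and miR-504 in FaDu, then miR-489 and miR-504 in HSC3) was 0.46, 0.26, 0.28 and 0.26 without background subtraction, 0.137, 0.0332, 0.0263 and 0.0228 with loess and 0.126, −0.0417, −0.00074 and −0.0411 with total-signal scaling, which set the median of all genes between −0.19 and −0.15. With the deposited ratios it was 0.15 with miR-489 in FaDu, 0.0692 with miR-489 in HSC3 and 0.0333 with miR-504 in HSC3, and with the second brightest probe it was 0.23 with miR-489 in FaDu. Past 1.5-fold between the miRNAs there was 1 member in HSC3 with the deposited ratios, and in FaDu there were 2 with the mean of all probes, 3 with the second brightest probe and 0 at 2-fold. Between the lines, 20 members passed at 1.5-fold. The median difference in control RNA was −0.45 to −0.27 when each array was left out, with −0.45 without the FaDu miR-504 array. The shares of all genes passing were not counted under these other settings. With the second brightest probe, RFC3, which had passed as higher with miR-489, was at −0.17 (limma adjusted p = 0.291), the one change of sign among members that passed against control, over the corrections, scalings, filters and probe choices tried. All 39 members were above background in both channels on all arrays, but POLE was dim, with Cy3 signals of 57 to 96, and its ratio with miR-489 ran from 0.44 to 1.09 over the background corrections and scalings.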
